A study of Camellia japonica and Camellia azalea with 81 samples.

Results

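Leaves of Camellia japonica collected in spring were compared with leaves of the same species collected in winter, over 17 of the 81 RNA sequencing libraries of the study. Spring is represented by 9 libraries, 3 each from March, April and May. Winter is represented by 8 libraries, 3 each from December and January and 2 from February. The third February library, called Feb 1 here, was set aside because its profile resembles that of a flower bud. The tissue of every group is given in the labels as young leaf, with no treatment, cultivar, site, year or plant age attached, and nothing in them ties a library to a plant. The p-values below therefore measure the spread between these libraries, which may be technical.

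The study followed leaves of C. japonica and of a close relative, C. azalea, through the 12 months of a year, with 3 libraries per species and month, and added 9 flower bud libraries of C. japonica. The authors deposited TPM, transcript abundances scaled to the same total in every library, so a value is a share of that library's transcripts and the sequencing depth is unknown. In tissue samples of this kind, fewer cells of a type and less of a transcript per cell cannot be told apart.

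Camellias are evergreen shrubs of the tea family, the genus of the tea plant. Mature evergreen leaves persist through the cold season, and in many evergreens they harden against frost as days shorten and temperatures fall. New shoots and leaves are put out in a flush from the buds in spring. C. japonica flowers from winter into spring on buds laid down in the preceding warm season, whereas C. azalea is known for flowering through the summer.

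The deposited gene IDs are not paired with gene names, and no annotation was used here. The tissue label could therefore not be checked against known leaf or floral genes, no pathway could be followed by name, and only a few IDs are named in each comparison, with no role given to them. A gene counts as called below when its limma adjusted p is under 0.05 and its difference on the log2(TPM + 1) scale is at least 1. A difference on that scale understates the change of genes with low levels.

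Some libraries stood apart from the rest. Each library of the comparison was matched to the most similar of the 35 C. japonica leaf libraries by its correlation across genes. The best match came from the same season for 11 of the 17 libraries and from the same month for 4. Jan 2 and Mar 2 were each other's best match, Mar 1 was also closest to Jan 2, and Jan 3 was closest to an August library. Mar 3 had the most genes at 1 TPM or more, 26538, against 22533 to 24506 in the other spring libraries and 22906 to 24110 in the winter libraries.

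RNA typical of flower buds was followed with 171 IDs that averaged at least 50 TPM over the FB-2 and FB-3 bud libraries and stayed below 1 TPM in every C. japonica leaf library from June to November. Their summed level was 10910 to 44109 TPM in the 6 bud libraries and 1.98 to 31.2 TPM in the leaf libraries from June to November. It was 5.82 to 17.1 TPM in the 8 winter libraries. In spring it was 830 TPM in Mar 3, where 32 of the 171 IDs reached 1 TPM, and 4.12 to 78.7 TPM in the other 8 libraries. May 3, at the upper end of that range, had 25 of the IDs at 1 TPM or more. Feb 1, which was set aside, reached 2739 TPM and had 61 of the IDs at 1 TPM or more. Only 10 of these IDs passed the filter on low values, since the list itself requires low levels from June to November. Of these 10, 0 were called in either direction. Among all genes tested 2.16% were called higher in spring and 1.17% higher in winter, so 10 IDs are too few to show a difference from that.

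**Figure D1:**
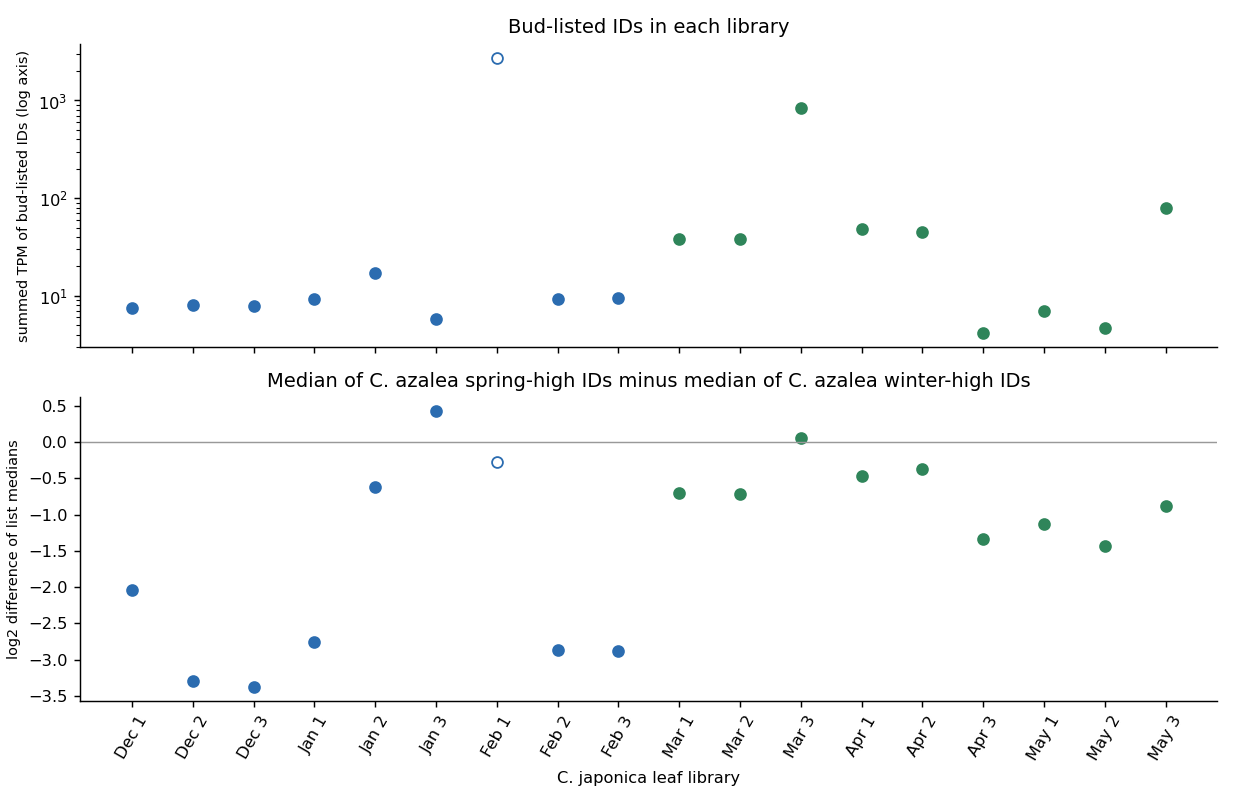
The upper panel plots the summed TPM of the 171 bud-listed IDs (log axis) in each C. japonica winter (blue) and spring (green) library, with Feb 1 as an open circle, and the lower panel plots the median log2(TPM + 1) of the IDs called spring-high in C. azalea minus that of the IDs called winter-high there. Feb 1 and Mar 3 stand above all other libraries in the upper panel, and Jan 3 (0.42) and Jan 2 (-0.62) lie above the other 6 winter libraries of the comparison in the lower one.

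A seasonal measure that did not come from these libraries was available from C. azalea, whose own spring and winter leaf libraries gave lists of spring-high and winter-high IDs. In each C. japonica library the median log2(TPM + 1) of the C. azalea winter-high list was subtracted from that of its spring-high list. The difference was -3.37 to -2.05 in 6 of the 8 winter libraries, -0.62 in Jan 2 and 0.42 in Jan 3. It was -1.43 to 0.05 in the spring libraries, with the highest value in Mar 3. The measure is not a scale from winter to spring alone. It was 0.17 to 0.98 in the July and August libraries. At -0.59, Nov 1 lay above all May libraries (-1.43 to -0.88). With months as the unit C. azalea had 5 called genes, so its lists rest on the spread between libraries. On this measure Jan 3 lay above all 9 spring libraries, within the July and August range, and Jan 2 lay above 6 of them. Both are labelled January. The part of these libraries in each result was followed by leaving them out.

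Between winter and spring, 621 of the 28740 genes tested were called higher in spring (2.16% of all genes tested) and 337 were called higher in winter (1.17%). The median difference of all genes tested was 0.01 on the log2 scale, and 6051 genes had an unadjusted p under 0.05. The genes higher in spring went from a median of 3.39 TPM in winter to 14.3 TPM in spring, and the genes higher in winter from 29.1 TPM in winter to 8.91 TPM in spring. Winter-high genes were thus the more abundant set in their own season, and the median spring-high gene started from a low level.

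The differences were mostly moderate. Their median was 1.43 among spring-high genes and -1.39 among winter-high genes on the log2 scale, medians that the threshold of 1 bounds from below in size. A difference of at least 2 was reached by 138 spring-high and 58 winter-high genes, of at least 3 by 52 and 21, and of at least 4 by 16 and 8. Among the spring-high genes, 155 averaged below 1 TPM in winter, and 67 averaged at least 100 TPM in spring. Among the winter-high genes, 42 averaged below 1 TPM in spring, and 71 averaged at least 100 TPM in winter.

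Together the spring-high genes took 2.13% to 3.70% of all transcripts in the spring libraries and 0.669% to 2.03% in the winter libraries. The winter-high genes took 1.57% to 5.69% in the winter libraries and 0.675% to 1.59% in the spring libraries. Jan 2 and Jan 3 were the winter libraries nearest to spring in both shares, and Mar 1 and Mar 2 were the spring libraries nearest to winter. These shares describe genes that were chosen on the same libraries and test nothing further.

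Complete separation of the libraries was uncommon. Every spring library lay above every winter library for 109 genes (0.379% of those tested) and below every winter library for 73 (0.254%). Of the called genes, 74 of the 621 spring-high and 30 of the 337 winter-high genes had groups that did not overlap.

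The count depended on single libraries to some degree. Leaving out 1 library at a time gave 676 to 1207 called genes, the lowest without Feb 2 and the highest without Jan 2. Without Mar 3, 480 of the 621 spring-high and 272 of the 337 winter-high genes were still called in the same direction. Without Jan 3 and Mar 3 together, a choice made after seeing the data, 432 and 286 were. With Feb 1 kept, 424 and 253 were.

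A stricter comparison took the month as the unit, so that 3 spring months were set against 3 winter months with the spread taken between months within seasons. It called 335 genes, 246 higher in spring and 89 higher in winter. Of these, 231 and 83 were among the genes called over libraries.

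EVM0020184 was low in winter and higher in every spring library. Its level in December was 10.4, 3.21 and 1.75 TPM, in January 0, 13.7 and 5.31 TPM, and in the February libraries 0.440 and 0.425 TPM. In March it was 71.3, 16.2 and 317 TPM, in April 253, 276 and 27.8 TPM, and in May 41.6, 53.5 and 119.6 TPM. All 9 spring libraries lay above all 8 winter libraries, with Mar 2 the lowest in spring and Jan 2 the highest in winter. Feb 1, which was set aside, had 33.5 TPM, above Mar 2 and Apr 3, so this separation holds only without it. The difference was 4.72 ± 0.56 (SE) on the log2 scale, with a limma adjusted p of 3.1e-06, and it was 4.36 to 5.08 when single libraries were left out.

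EVM0021730 was close to silent in winter. It was listed at 0 in 6 of the 8 winter libraries, at 3.804 TPM in Dec 2 and at 5.70 TPM in Jan 2. In March it was 23.9, 0 and 101 TPM, in April 71.1, 86.1 and 30.5 TPM, and in May 40.2, 64.3 and 57.0 TPM. Mar 2 was the only spring library at 0, and the other 8 spring libraries lay above all winter libraries. The difference was 4.57 ± 0.81 (SE) on the log2 scale with a limma adjusted p of 0.00065, a size that depends on the added 1 TPM because most winter values are 0.

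EVM0030747 was one of the abundant winter genes. December had 468, 4581 and 3484 TPM, January 3644, 237 and 244 TPM, and the February libraries 2638 and 2282 TPM. In March the values were 218, 242 and 21.3 TPM, in April 33.4, 15.1 and 11.5 TPM, and in May 18.9, 17.9 and 11.2 TPM. The groups met only at their edges, since Mar 2 lay marginally above Jan 2, and the other 8 spring libraries lay below all winter libraries. The difference was -5.46 ± 0.52 (SE) on the log2 scale, with a limma adjusted p of 1.9e-07.

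EVM0030864 was high in the same winter libraries. It had 37.2, 463 and 245 TPM in December, 528, 12.99 and 0 TPM in January, and 345 and 295 TPM in the February libraries. In March it had 8.85, 16.5 and 3.20 TPM, in April 0.961, 0 and 0.573 TPM, and in May 1.34, 0.967 and 0 TPM. Jan 2 and Jan 3 fell within the spring range, and the other 6 winter libraries lay above all spring libraries. The difference was -5.17 ± 0.74 (SE) on the log2 scale with a limma adjusted p of 4.9e-05, but with months as the unit the limma adjusted p was 0.062 and the call was lost.

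**Figure D2:**
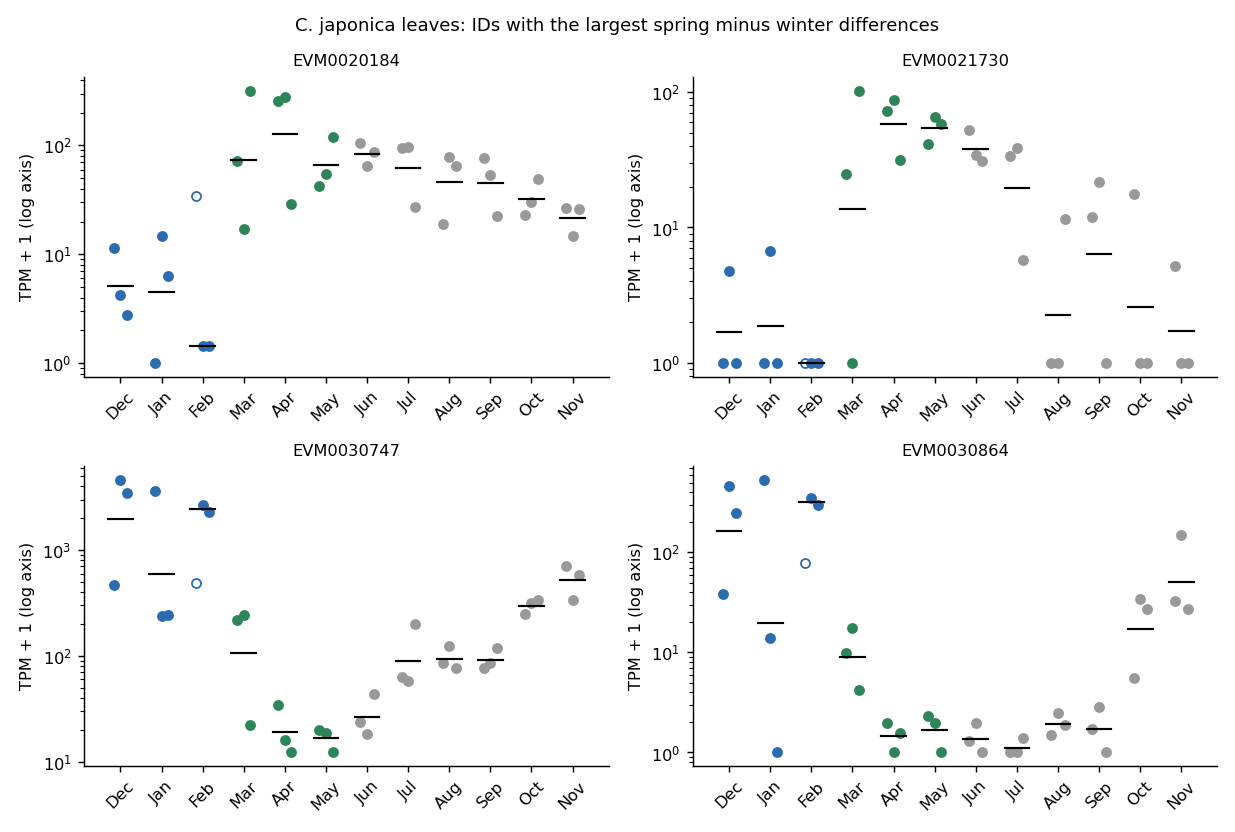
Points give the TPM + 1 (log axis) of EVM0020184, EVM0021730, EVM0030747 and EVM0030864 in each C. japonica leaf library by month from December to November. Winter is blue, spring is green and the months from June to November are grey. The open circle is Feb 1, and bars are month means on the log2(TPM + 1) scale without Feb 1. Between winter and spring, the upper pair sits higher from March to May and the lower pair from December to February. Jan 2 and Jan 3 of EVM0030864 (12.99 and 0 TPM) lie inside the spring range.

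The season was not uniform within itself. Of the 621 spring-high genes, 251 had their highest spring month in May, 218 in April and 152 in March. Of the 337 winter-high genes, 181 had their highest winter month in December, 123 in February and 33 in January, the month that holds Jan 2 and Jan 3.

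Each spring month was also set against the same winter libraries, so the comparisons share their winter side and are given side by side. March had 301 genes called higher (1.05%) and 49 called lower (0.17%) than winter. April had 315 called higher (1.1%) and 178 called lower (0.619%). May had 521 called higher (1.81%) and 464 called lower (1.61%).

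The March count rested on few libraries. It fell from 350 to 82 without Mar 3, rose to 675 without Jan 2, and was 104 with Feb 1 kept. The April count of 493 was 177 without Apr 2, and the May count of 985 was 430 without May 2. The split between directions moved with scaling: 86% of the March calls were higher than winter as deposited, 78.5% after median-of-ratios scaling and 68.4% after quantile scaling. For May these shares were 52.9%, 65.1% and 60.8%.

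Within spring, May was set against March, a comparison that uses no winter library. May had 103 genes called higher (0.358%) and 332 called lower (1.16%) than March, against a median of all genes tested of -0.24 on the log2 scale. After median-of-ratios scaling 168 genes were called higher and 190 lower, and after quantile scaling 198 and 167. The larger count on the March side was thus reduced by the first scaling and turned round by the second. Leaving out single libraries gave 23 called genes without Mar 2 and 448 without May 3, and a change of more than 1.5 times in 5 of the 6 cases.

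EVM0020786 was listed at 0 in all 3 March libraries. In April it was 0, 0 and 63.8 TPM, and in May 69.9, 98.2 and 60.7 TPM. Apr 3 was thus alone among the April libraries in holding a level like that of May, and the June libraries held 42.5 to 81.4 TPM. Its May minus March contrast had a limma adjusted p of 0.0018, and no fold is given against values of 0.

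EVM0010648 was also listed at 0 in the 3 March libraries. May had 25.8, 29.6 and 12.3 TPM, June had 13.1, 14.7 and 4.78 TPM, and the limma adjusted p of May minus March was 0.00023. Its April libraries held 0, 0 and 0.292 TPM, so it was high in May and June and at or near 0 in the months just before.

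EVM0029222 went the other way. March had 333, 596 and 97.0 TPM, April 105, 42.5 and 1.63 TPM, and May 2.70, 4.22 and 7.66 TPM. Jan 2, with 236 TPM, was the only winter library in the March range. The groups did not overlap, and the May minus March difference was -5.61 ± 1.31 (SE) on the log2 scale with a limma adjusted p of 0.029. The call was lost in 4 of the 6 cases with 1 library left out, with limma adjusted p up to 0.14.

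EVM0012740 fell in the same order of months. It had 29.8 to 188 TPM in winter, 122, 136 and 35.3 TPM in March, 49.6, 34.4 and 2.45 TPM in April, and 0.385, 0.980 and 1.07 TPM in May. All May libraries lay below all March libraries, and Mar 3 and Jan 3 were the lowest of their months. The May minus March difference was -5.57 ± 0.85 (SE) on the log2 scale with a limma adjusted p of 0.0021.

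**Figure D3:**
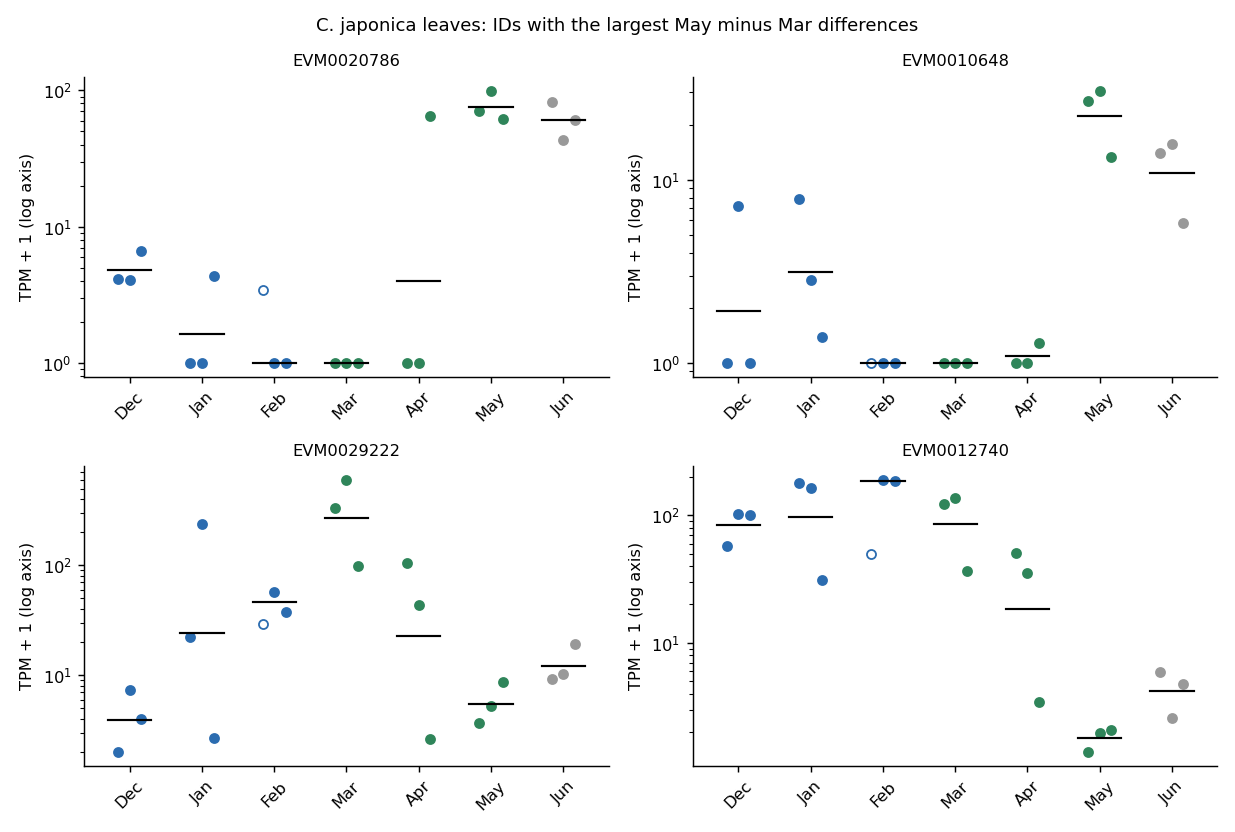
Points give the TPM + 1 (log axis) of EVM0020786, EVM0010648, EVM0029222 and EVM0012740 in each C. japonica leaf library from December to June, the open circle is Feb 1, and bars are month means on the log2(TPM + 1) scale without Feb 1. Of the April libraries Apr 3 is nearest to May for all 4 genes, with 63.8 TPM of EVM0020786 and 2.45 TPM of EVM0012740.

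The contrast that chose the genes compared no library from June to November, although those libraries entered the filter and the estimate of the spread, and their levels show how the called sets run on through the year. The median month mean of the spring-high genes was 3.77 in May on the log2(TPM + 1) scale, 3.46 in June, 2.89 in July, 2.57 in August, 2.66 in October and 2.40 in November, against 1.72 in December. The winter-high genes had a median of 2.53 in May, 2.45 in June, 2.85 in July, 3.19 in August, 3.66 in September, 4.05 in October and 4.59 in November, against 5.03 in December. The winter-high set was thus lowest in June and higher in each later month to December, while the spring-high set was between its spring and winter levels from July to November. The median over all genes tested stayed between 2.83 and 3.31 in all 12 months.

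The month with the highest mean lay outside spring for some spring-high genes, in June for 62, in July for 46 and in August for 19. Among winter-high genes the highest month was December for 127, February for 116 and November for 53.

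**Figure D4:**
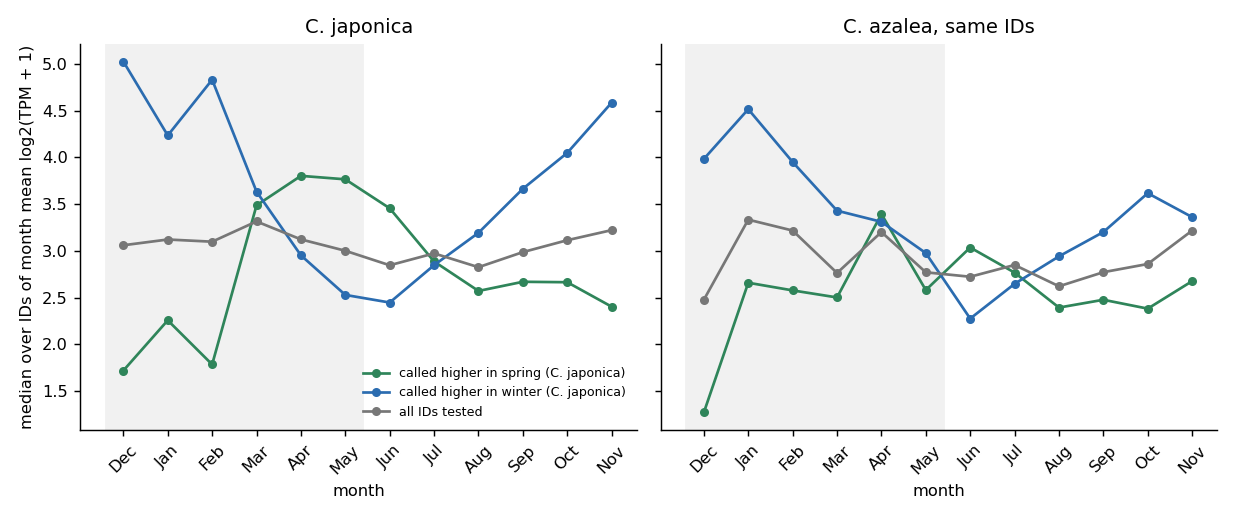
Lines give the median over the C. japonica spring-high and winter-high genes, and over all genes tested, of the month mean log2(TPM + 1) in C. japonica (left) and C. azalea (right), with the months that chose the genes shaded. In C. japonica the winter-high line falls to 2.45 in June and reaches 4.59 by November. In C. azalea the spring-high line is lowest in December (1.27) and highest in April (3.39).

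Summer (June to August) was then set against autumn (September to November) over 9 libraries each. The same libraries were part of the estimate of the spread behind the spring and winter calls, so the shares below are not fully separate from the choice of genes. Among all genes tested, 238 were called higher in summer (0.828%) and 617 higher in autumn (2.15%), with a median difference of -0.22 on the log2 scale. Of the 621 spring-high genes, 51 were higher in summer (8.21%) and 2 in autumn. Of the 337 winter-high genes, 143 were higher in autumn (42.4%) and 0 in summer. Both shares exceed those of all genes tested in the same direction, and they remained above them under other scalings. They were 12.5% and 30.2% after median-of-ratios scaling, with 356 and 246 of all genes called, and 10.7% and 30.9% after quantile scaling, with 303 and 281 called.

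The direction was shared more widely than the calls. Summer lay above autumn for 486 of the 621 spring-high genes and for 30 of the 337 winter-high genes, against 28.6% of all genes tested. EVM0030747, for which summer libraries held 17.5 to 198 TPM and autumn libraries 76.3 to 708 TPM, was among those called, with a summer minus autumn difference of -1.99 ± 0.50 (SE) on the log2 scale and a limma adjusted p of 0.0093. EVM0030864 had at most 1.49 TPM in summer and up to 146.9 TPM in autumn, a difference of -2.997 ± 0.716 (SE) with a limma adjusted p of 0.0071. EVM0020184 (0.98 ± 0.54, limma adjusted p 0.21) and EVM0021730 (1.96 ± 0.78, limma adjusted p 0.083) had positive differences that did not pass the test.

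The called genes were also looked up in the flower bud libraries FB-2 and FB-3, in which the median level was 2.91 on the log2(TPM + 1) scale for spring-high genes, 4.36 for winter-high genes and 3.47 for all genes tested. Both called sets lay within the range of their own leaf month medians, 1.72 to 3.80 for spring-high and 2.45 to 5.03 for winter-high genes. A link of either set to buds was not tested. EVM0030747 had 298 to 5065 TPM and EVM0030864 had 50.3 to 1042 TPM over all 9 bud libraries, so these winter-high genes were not limited to leaves. EVM0020184 had 0.707 to 35.2 TPM there, and EVM0010648 was listed at 0 in all of them.

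The most similar comparison in the study is spring against winter in C. azalea, with 9 leaf libraries in each season. It had 630 genes called higher in spring (2.29%) and 545 higher in winter (1.98%) of 27492 tested. The C. azalea values were scaled in a separate table, so only differences within each species are set beside each other, not levels. With months as the unit C. azalea had 5 called genes, against 335 in C. japonica.

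Of the C. japonica spring-high genes, 555 were tested in C. azalea, and 119 were called spring-high there too, 21.4% of those and 20.2% of the 588 C. azalea spring-high genes tested in C. japonica. Of the winter-high genes 320 were tested, and 109 were called winter-high in both, 34.1% of those and 21.04% of the 518 C. azalea winter-high genes tested in C. japonica. At a pseudocount of 0.1 the genes called spring-high in both numbered 200. Only 2 genes were called spring-high in C. japonica and winter-high in C. azalea, and 0 the other way round. These were EVM0002387, whose log2 difference was 1.34 in C. japonica against -1.10 in C. azalea, and EVM0020750, with 1.07 against -1.68, and they are named after their values were seen. This count was 0 to 4 with single C. japonica libraries left out, 6 at a pseudocount of 0.1, 3 after quantile scaling, and 1 without the filter or without Jan 3 and Mar 3 together. The shared genes numbered 168 to 270 with single C. japonica libraries left out and 237 without Jan 3 and Mar 3 together.

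The median C. azalea difference was 0.46 for the C. japonica spring-high genes, -0.70 for the winter-high genes and -0.10 for all genes tested in both species. It was above 0 for 80.5% of the spring-high genes, against 39.7% of all genes, and below 0 for 87.8% of the winter-high genes, against 60.3% of all. The direction of the season difference was thus mostly the same, and the median C. azalea differences were less than 1 in size. The months were uneven, however. On the log2(TPM + 1) scale the spring-high genes had C. azalea medians of 1.27 in December, 2.66 in January and 2.58 in February. They had 2.50 in March, 3.39 in April and 2.58 in May, so March and May were close to January and February. The winter-high genes had 3.95 to 4.52 in the winter months and 2.98 to 3.43 in the spring months. All genes tested ran from 2.48 in December to 3.33 in January. In the other direction, the C. azalea lists had median C. japonica differences of 0.55 and -0.53 against 0.00 for all genes.

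**Figure D5:**
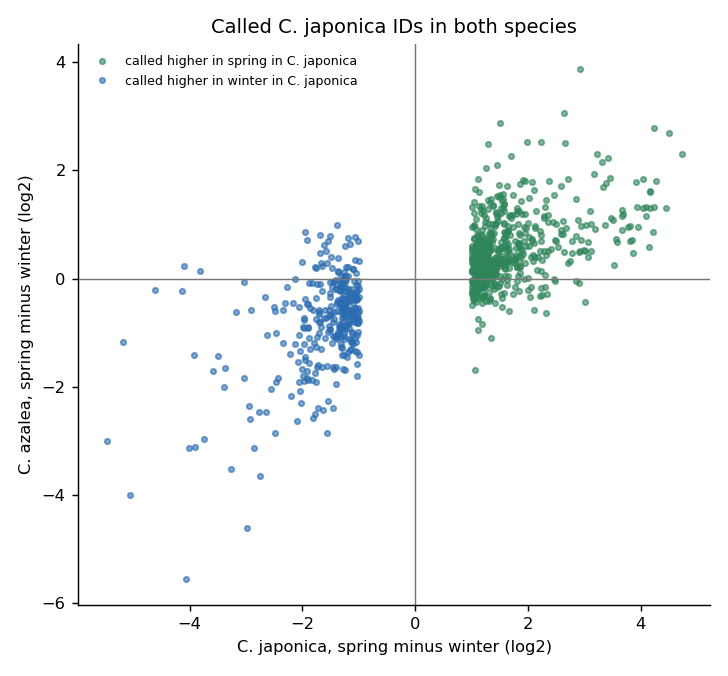
Each point is a gene called in C. japonica and tested in both species, placed by its spring minus winter log2 difference in C. japonica (horizontal axis) and in C. azalea (vertical axis). Most spring-high genes (80.5%) lie above 0 on the vertical axis and most winter-high genes (87.8%) below it.

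Whether the seasonal difference itself differed between the species was tested in 1 fit over 71 libraries. The C. japonica difference was called higher for 520 of 31193 genes (1.67%) and lower for 236 (0.757%), with a median over all genes of 0.11 on the log2 scale. After median-of-ratios scaling the counts were 496 and 431, and after quantile scaling 470 and 446, so the excess of higher calls was reduced by both scalings. Of the 520, 230 were called spring-high in C. japonica and 111 winter-high in C. azalea, with 2 in both sets and 181 in neither. Of the 236, 84 were called winter-high in C. japonica and 97 spring-high in C. azalea, with 55 in neither.

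EVM0021730 was listed at 0 in all 36 C. azalea leaf libraries, so its seasonal difference was measurable in C. japonica only. The listing at 0 was not usual among the spring-high genes, 11 of which (1.77%) were at 0 in every C. azalea library, against 2.32% of all genes tested.

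EVM0033164 behaved in the reverse manner. In C. azalea it had 34.6 to 340.1 TPM in winter (median 113) and 1.66 to 36.8 TPM in spring (median 4.72). The difference was -3.74 ± 0.17 (SE) on the log2 scale with a limma adjusted p of 3.8e-16, which rests on the spread between libraries of a month. Its level there was not limited to winter and changed sharply between months. The C. azalea month mean was 2.44 TPM in May, 424 TPM in June, 2.13 TPM in July and 456 TPM in November. In C. japonica it had 5.81 to 493 TPM in winter (median 340.3) and 93.8 to 874 TPM in spring (median 259), a difference of 0.29 ± 0.78 (SE) with a limma adjusted p of 0.87. The winter minimum of C. japonica was in Jan 3, and the seasons overlapped. The difference between the species was 4.03 ± 0.79 (SE) with a limma adjusted p of 0.0011.

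EVM0040544 and EVM0015029 were high in several C. japonica winter libraries and low in most spring libraries. EVM0040544 had 1.85 to 1015 TPM in winter (median 127) and 0.431 to 155 TPM in spring (median 2.01), while in C. azalea it had 2.65 to 40.4 TPM in winter and 1.63 to 33.1 TPM in spring. EVM0015029 had 0 to 792 TPM in winter (median 59.96) and 0 to 123 TPM in spring (median 2.79), and at most 6.36 TPM in the C. azalea seasons compared. For both genes the C. japonica seasons overlapped, and Mar 1 was the highest spring library.

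The difference between the species was -4.41 ± 1.03 (SE) for EVM0040544 with a limma adjusted p of 0.0079. It was -4.33 ± 0.93 (SE) for EVM0015029 with a limma adjusted p of 0.0032. With Feb 1 kept in winter, both calls were lost, with limma adjusted p of 0.083 and 0.058.

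The genes named first were compared between the species as well. They were chosen for the largest differences in C. japonica, and this choice favours a larger difference there than in C. azalea. EVM0020184 also rose in C. azalea, from a median of 5.71 TPM in winter to 18.997 TPM in spring, a difference of 2.30 ± 0.31 (SE) on the log2 scale with a limma adjusted p of 5.4e-06. March, at 8.19 to 10.5 TPM there, was not above February, at 9.52 to 11.8 TPM. December had 0 to 1.89 TPM and April 48.4 to 123 TPM. Its difference between the species was 2.43 ± 0.65 (SE) with a limma adjusted p of 0.023, which was 0.055 without Mar 3. EVM0030747 also fell, from a median of 701 TPM to 47.8 TPM, a difference of -3.01 ± 0.29 (SE) on the log2 scale with a limma adjusted p of 1.3e-08, and the difference between the species was -2.45 ± 0.60 (SE) with a limma adjusted p of 0.012. EVM0030864 was listed at 0 in 30 of the 36 C. azalea leaf libraries.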

How the data were processed

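The authors deposited TPM in 1 table per species, made with HISAT2 2.1.0 and StringTie 1.3.6 per the submitters' processing notes. Settings, genome build and gene models were not given in the sources used here. TPM keep no depth. Columns were tied to libraries through the code in each sample title, and 0 columns were left untied. The numbers given to C. japonica libraries are accession order within a month and serve only as names. The labels give no batch or date of sequencing.

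The comparison, its libraries and the lists were chosen with earlier results of these data known. Genes that reached 1 TPM in 3 or more of 35 C. japonica leaf libraries (36 less Feb 1), 28740 of 41982 IDs, were fitted as log2(TPM + 1) in R 4.3.3 with limma 3.58.1, with 1 mean per month, a mean-variance trend and Benjamini-Hochberg adjustment over all genes tested. Spring minus winter was the mean of the 3 spring month means less that of the 3 winter month means, and the test was two-sided. The species difference started from the 41952 IDs in both tables. Any with the prefix STRG were left out, as were IDs that reached 1 TPM in fewer than 3 of the 71 libraries, and 31193 were fitted. Named IDs were the 2 called in each direction with the largest difference among those averaging 5 TPM or more on the higher side (for the species difference, in the highest of the 4 season means). Code was tested on simulated data. Alternatives were a pseudocount of 0.1, no filter, median-of-ratios and quantile scaling, Feb 1 kept, the 17 libraries alone, months as the unit, a replicate block in C. azalea and leaving out single libraries.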

Additional observations from a re-analysis of the deposited data

Results flagged for a closer look

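A single value far from the others was looked for in 13 quantities, each over the 8 winter and the 9 spring libraries, and was found in 7 of these 26 sets. Chance gives about 1 in 20 for 1 set, but the sets share their libraries and hold skewed TPM of genes chosen for large differences, so that rate does not apply to the count. For EVM0021730 this was Mar 2, at 0 TPM in spring. For EVM0033164 and EVM0040544 it was Jan 3 in winter, at 5.81 and 1.85 TPM. For EVM0040544 and EVM0015029 it was Mar 1 in spring, at 155 and 123 TPM. The summed level of the bud-listed IDs was 17.1 TPM in Jan 2, the highest in winter, and Mar 3 had 26538 genes at 1 TPM or more, the most in spring.

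The spring minus winter difference of C. japonica less that of C. azalea passed the limma test for 8 of the named IDs. EVM0021730, EVM0033164, EVM0040544 and EVM0015029 were named for the largest such differences, so their passing was fixed by the choice. The others were named for large differences within C. japonica, which also favours passing. Among all genes tested, 1.67% were called higher and 0.757% lower. On the log2 scale it was 2.43 for EVM0020184, 4.57 for EVM0021730 (listed at 0 throughout C. azalea), 4.03 for EVM0033164, -2.45 for EVM0030747, -3.99 for EVM0030864, -2.98 for EVM0012740, -4.41 for EVM0040544 and -4.33 for EVM0015029. At a pseudocount of 0.1 the calls of EVM0020184 (limma adjusted p 0.071) and EVM0030864 (limma adjusted p 0.18) were lost. That of EVM0020184 was also lost with Feb 1 kept (limma adjusted p 0.15) and without Mar 3 (limma adjusted p 0.055), and those of EVM0040544 and EVM0015029 with Feb 1 kept (limma adjusted p 0.083 and 0.058).

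Feb 1, which was left out of the comparisons except where it is said to be kept, held 2739 TPM of the bud-listed IDs, against at most 17.1 TPM in the other winter leaf libraries.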

How the results depend on the processing

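The spring minus winter count of 958 was 1167 at a pseudocount of 0.1, 901 without a filter, 949 and 901 after median-of-ratios and quantile scaling, 863 with Feb 1 kept, 1029 with the 17 libraries alone and 819 without Jan 3 and Mar 3, and no named gene reversed. With months as the unit it was 335 (246 and 89), and the C. azalea count of 1175 was 5. At a pseudocount of 0.1 the March count was 228, the May minus March count 244 and the C. azalea count 2065. With Feb 1 kept the March count was 104, and without Jan 3 and Mar 3 it was 83. The summer share of spring-high genes was 12.5% after median-of-ratios scaling. With single libraries left out, March counts were 82 to 675, April 177 to 652, May 430 to 1195, May minus March 23 to 448, C. azalea 1006 to 1633 and the species difference 551 to 975. The species difference of EVM0020184 had limma adjusted p of 0.071 at a pseudocount of 0.1, 0.15 with Feb 1 kept and 0.055 without Mar 3, and that of EVM0030864 was 0.18 at a pseudocount of 0.1. EVM0029222 had 0.08 there for May minus March. With the replicate block, C. azalea had 1168 called genes. Deviations from the month mean were correlated over 45 pairs of same-numbered C. azalea libraries from different months (r of -0.58 to 0.56, median 0.0035, 12 over 0.1). Pairs with different numbers had a median r of 0.019, so the numbers were not taken as pairs, and the C. japonica codes carry none. The cause of these changes was not tested. Depth is unknown, so the precision of low values could not be assessed.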
